A study of Polistes metricus with 16 samples.

Results

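Brains of 8 foundresses of the paper wasp Polistes metricus were compared, 4 from wasps trained to faces (M30, M67, M79 and M91) and 4 from wasps trained to simple patterns (M1, M15, M4 and M5). They are 8 of the 16 libraries of the series, and the other 8 come from workers. The groups were taken from the stimulus that the sample labels give, and each library is the total RNA of 1 adult female brain. The faces were those of a related wasp, Polistes fuscatus, and both groups learned in a T-maze with negative reinforcement. All wasps had 40 trials and were frozen 30 minutes after the last. Wasps trained to faces were collected in June and wasps trained to patterns in May, so stimulus and month cannot be told apart. All were caught wild in 1 place as nest foundresses, no untrained wasp was among them, and no time before training was sampled. A difference between these groups is therefore a difference between kinds of training together with season, not an effect of training itself.

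Foundresses are mated queens that leave hibernation in spring and start a nest, alone or with other queens. In P. fuscatus the face patterns differ between individuals and wasps tell each other apart by them, whereas P. metricus is known as a species that does not usually do so. Forming a lasting memory in an insect brain involves the transcription of new RNA after training, so a brain taken soon after the last trial can hold RNA changes of that kind beside the standing state of the wasp. The comparison asks whether brains of wasps trained to faces and of wasps trained to simple patterns differ in transcript levels, with season part of any difference.

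The deposited table gives whole-number counts for 127674 transcript identifiers and does not pair them with gene names, sequences or positions. Gene functions, pathways and markers of brain cells therefore could not be read, and the tissue could not be checked against its markers. Identifiers at 10 or more counts in 4 or more of the 8 libraries were tested, which kept 53388 and left out 74286, of which 2155 had no count in any of the 8. The tested identifiers held 99.2% to 99.4% of each library. Levels are given in CPM, counts scaled to the library size after edgeR's TMM factors. An identifier is a transcript or a piece of one, so counts of identifiers are not counts of genes.

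By edgeR's quasi-likelihood test no transcript passed between faces and patterns, which is 0 of 53388 (0%), and the lowest Benjamini-Hochberg adjusted p was 0.325. An unadjusted p under 0.05 was reached by 5554 transcripts (10.4%). Of these, 2105 (3.94%) were at higher and 3449 (6.46%) at lower levels in wasps trained to faces, so 62.1% lay on the lower side. At an unadjusted p under 0.01 there were 1440 (2.70%), 476 higher and 964 lower, and at one under 0.001 there were 144 (0.270%), 50 higher and 94 lower. Over all tested transcripts the directions were even, with 50.4% above 0 and a median log2 fold change of 0.0029. Limma-voom also called 0 transcripts, and DESeq2 called 216 (0.405%), 109 higher and 107 lower. All 216 had an unadjusted p under 0.05 by edgeR, and in 196 of them the groups did not overlap, beside 6.48% of all tested. Both counts largely follow from choosing the 216 by p on the same libraries, so they are no separate support. The median size over the 216 was 0.985 on the log2 scale, and 105 reached 2-fold by DESeq2.

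The typical difference was about as large as its standard error. The median size of the log2 fold change was 0.187, a 1.14-fold difference, beside a median standard error of 0.201, and the 95% interval reached 0.436 to either side at the median. For 41218 transcripts (77.2%) that interval lay wholly within 2-fold in both directions, and for 22104 (41.4%) within 1.5-fold. At least a 2-fold difference was estimated for 451 transcripts higher (0.845%) and 416 lower (0.779%) in faces, and at least a 4-fold one for 52 higher and 18 lower. Those of 2-fold or more were mostly rare transcripts. Their median level was 1.72 CPM on the higher side, where 231 of the 451 lay in the lowest quartile of abundance. On the lower side it was 1.16 CPM, with 276 of the 416 in that quartile, against a median of 5.49 CPM over all tested. An unadjusted p under 0.05 went with 59.4% of the 2-fold higher and 81.0% of the 2-fold lower transcripts, beside 10.4% of all tested. Size and p come from the same fit, so these shares only describe the transcripts chosen by size.

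**Figure D1:**
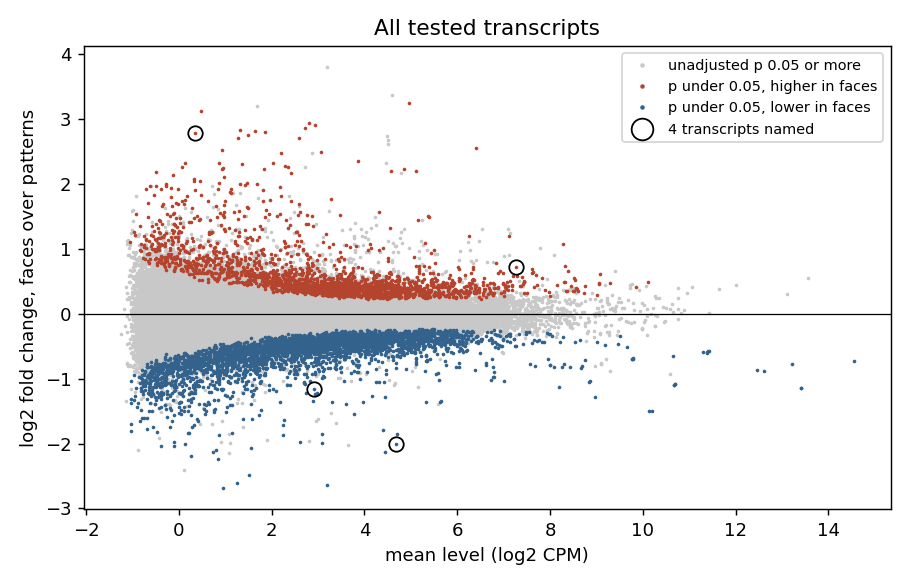
Log2 fold change of each of the 53388 tested transcripts, faces over patterns, against its mean level in log2 CPM, with 1 dot per transcript. Colour marks the 2105 higher and 3449 lower at an unadjusted p under 0.05, and circles mark the 4 transcripts named in the text; none passed the adjusted threshold.

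No transcript above the test's count minimum was seen in only 1 of the groups. None had 10 or more counts in each wasp of 1 group and 0 in every wasp of the other, in either direction. With at least 1 count in each wasp of 1 group in place of 10, 102 of the 127674 identifiers were seen only in faces. Another 169 were seen only in patterns. None of these identifiers went above 9 counts in any library, so they all lie below the level at which transcripts were tested. Libraries were not reduced to equal depth here, and M15 of the patterns group had the most identifiers with a count, 99735.

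The single wasps were then compared one by one. In 3462 transcripts (6.48%) the 4 wasps trained to faces did not overlap with the 4 trained to patterns. In 1341 of these (2.51%) every wasp trained to faces lay above, and in 2121 (3.97%) every one lay below. The separation reached 2-fold in the fitted difference in 111 of the 1341 and in 181 of the 2121. Of the non-overlapping transcripts 77.3% had an unadjusted p under 0.05, beside 10.4% of all tested. Of those at that p 48.2% did not overlap, beside 6.48% of all tested. Both measures rest on the same values of the same wasps, so their agreement is largely built in and is no separate support.

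How far the 5554 depended on any 1 wasp was examined by leaving out each of the 8 in turn. In all 8 such fits 2075 (37.4%) kept an unadjusted p under 0.05, 723 higher and 1352 lower, which is 65.2% lower. In 1559 of these 2075 the groups did not overlap, beside 6.48% of all tested, and the median size was 0.602 on the log2 scale. Keeping that p in every fit itself favours separated groups and larger differences, so these values only describe the 2075. The number at an unadjusted p under 0.05 ranged from 3413 without M30 to 6792 without M79. M30 was thus the wasp whose absence reduced the count by over 1.5 times. No call at an adjusted p under 0.05 appeared in any of the 8 fits, where the lowest adjusted p ran from 0.0549 without M30 to 0.652 without M5.

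Rare and abundant transcripts were next set side by side, in 4 equal quartiles of 13347 by mean level. The lowest quartile, below 1.78 CPM, had 952 transcripts at an unadjusted p under 0.05 (7.13%), 312 higher and 640 lower. The second, up to 5.49 CPM, had 1331 (9.97%), 449 higher and 882 lower. The third, up to 15.3 CPM, had 1649 (12.4%), 654 higher and 995 lower. The highest had 1622 (12.2%), 690 higher and 932 lower. More lay lower than higher in each quartile, with shares of 67.2%, 66.3%, 60.3% and 57.5% lower from the lowest quartile to the highest. The median size of the difference in this order was 0.281, 0.208, 0.166 and 0.137 on the log2 scale. Its median standard error was 0.351, 0.228, 0.158 and 0.133, so the median difference lay below the median error in the 2 lower quartiles and just above it in the 2 upper ones. The 95% interval lay within 2-fold for 41.4% of the transcripts in the lowest quartile and for 95.6% in the highest.

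**Figure D2:**
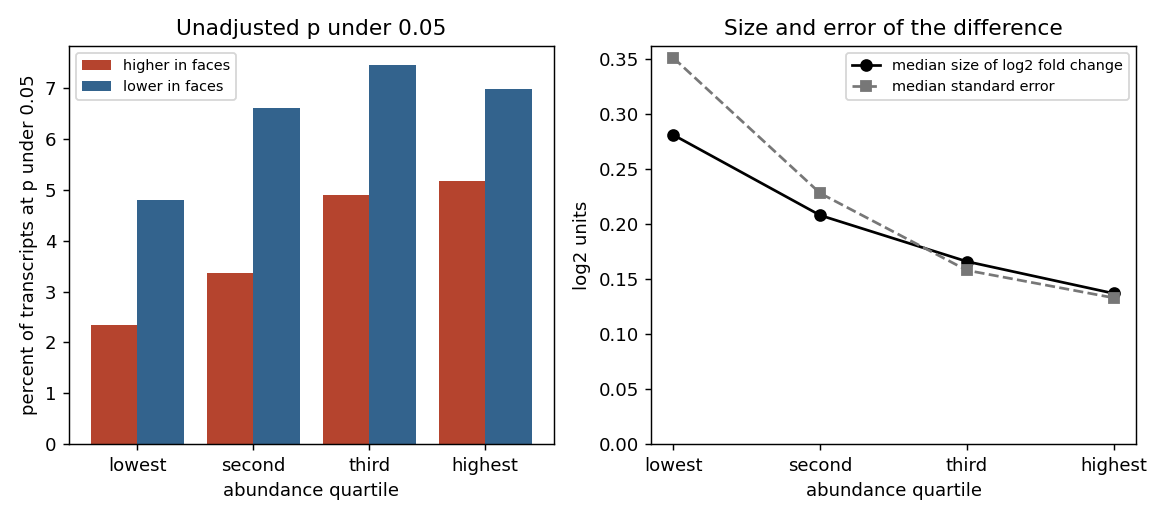
Left, the percent of transcripts in each abundance quartile at an unadjusted p under 0.05, higher or lower in faces. Right, the median size of the log2 fold change and its median standard error in log2 units. Lower levels in faces outnumber higher ones in all 4 quartiles, and size and error decline together, to 0.137 and 0.133 in the highest.

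The most abundant transcripts took a smaller mean share of the counts in wasps trained to faces, by a difference that did not pass its test. The 100 identifiers with the highest mean level over the 8 wasps, at 621 CPM or more, held 18.3% of the counts in M30, 19.0% in M67, 16.2% in M79 and 20.03% in M91. They held 24.99% in M1, 22.2% in M15, 17.1% in M4 and 22.6% in M5. The patterns wasps other than M4 lay above all 4 faces wasps, and M4 lay among those. The group values were 18.4% ± 1.62 in faces and 21.7% ± 3.29 in patterns (SD, n = 4 each), a difference of -3.34 percentage points. By an exact two-sided permutation test this gave p = 0.114, and 0.4 after adjustment over 4 such tests, where 0.0286 is the smallest p possible. Without M4 the difference was -4.87 percentage points, with an exact permutation p of 0.0286, the smallest those 7 wasps allow. M4 was the only patterns wasp among the faces wasps, so leaving it out fixed that p. With any other wasp left out the exact permutation p was 0.114 to 0.229. The 10 most abundant held 8.02% ± 1.48 in faces and 10.7% ± 2.92 in patterns (SD, n = 4 each).

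The lower share was spread unevenly over the 100. Of the 100, 49 were at higher and 51 at lower levels in faces, with a median log2 fold change of -0.0074 and a median standard error of 0.196. At an unadjusted p under 0.05 there were 3 higher and 25 lower, which is 28.0% of the 100 beside 10.4% of all tested. Their fold changes ran from -1.50 to 0.66 on the log2 scale, and the groups did not overlap in 9 of the 100, beside 6.48% of all tested. The lowest unadjusted p among the 100 was 0.000783, and none passed edgeR's adjusted threshold. Whether fewer cells that make these transcripts or less of them per cell lay behind the lower levels cannot be told apart in RNA from whole brains.

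The 2105 and the 3449 transcripts at an unadjusted p under 0.05 also differed in how much RNA they stood for. These sets were chosen on the same libraries, so their summed shares describe them and test nothing. The 2105 held 5.80% ± 0.666 of the counts in faces and 4.06% ± 0.232 in patterns (SD, n = 4 each). The 3449 held 11.8% ± 1.86 in faces and 18.4% ± 2.95 in patterns (SD, n = 4 each). By single wasp, the 3449 held 9.40% in M30, 13.1% in M67, 11.2% in M79 and 13.4% in M91, and 21.4% in M1, 17.7% in M15, 14.6% in M4 and 19.9% in M5. M4 was the wasp of the patterns group that came nearest to the faces group.

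The named transcripts were chosen by a rule as the 2 with the lowest p on each side, 4 in all. The values therefore describe them and test nothing, and none passed edgeR's adjusted threshold. In each of the 4 every wasp of one group lay beyond every wasp of the other.

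PmetTSAr2.0-023503 was a rare transcript at higher levels in faces. It stood at 3.19 CPM in M30, 1.01 in M67, 2.45 in M79 and 1.51 in M91, against 0.400 CPM in M1, 0.325 in M15, 0.219 in M4 and 0.229 in M5. The lowest wasp trained to faces lay 2.51 times above the highest trained to patterns, and the wasps trained to faces spread widely among themselves. These levels rest on 22 to 69 counts in faces and 4 to 7 counts in patterns. The mean was 2.04 ± 0.972 CPM over the wasps trained to faces and 0.294 ± 0.0858 CPM over those trained to patterns (SD, n = 4 each). For PmetTSAr2.0-023503 the log2 fold change came to 2.78 ± 0.42 (SE), a 6.88-fold difference with a 95% interval of 1.88 to 3.68 on the log2 scale, an unadjusted p of 1.92e-05 and an edgeR adjusted p of 0.325. The identifier that follows it in number had a log2 fold change of 2.33 ± 0.49 (SE) and an unadjusted p of 0.00103 by edgeR, so they are uncertain as separate transcripts.

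PmetTSAr2.0-055968 was an abundant transcript at higher levels in faces, at a mean level above 98.9% of those tested. It stood at 182 CPM in M30, 186 in M67, 172 in M79 and 224 in M91, against 126 CPM in M1, 113 in M15, 108 in M4 and 116 in M5. Wasps within each group lay close together, and the nearest wasps across groups were 1.36-fold apart. Counts behind these values were 3642 to 4069 in faces and 1973 to 2530 in patterns. The mean was 191 ± 22.9 CPM over the wasps trained to faces and 116 ± 7.78 CPM over those trained to patterns (SD, n = 4 each). For PmetTSAr2.0-055968 the log2 fold change came to 0.72 ± 0.12 (SE), a 1.65-fold difference, with an unadjusted p of 5.3e-05 and an edgeR adjusted p of 0.325. The 95% interval was 0.46 to 0.98 on the log2 scale, which leaves out a 2-fold difference.

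PmetTSAr2.0-052468 had the lowest p of all transcripts tested and was at lower levels in faces. It stood at 5.73 CPM in M30, 12.9 in M67, 10.7 in M79 and 11.5 in M91, against 50.7 CPM in M1, 40.6 in M15, 29.3 in M4 and 43.2 in M5. M30 was the lowest of all and M4 the lowest of the patterns group, still 2.27 times above the highest wasp trained to faces. Counts were 124 to 282 in faces and 535 to 941 in patterns. The mean was 10.2 ± 3.12 CPM over the wasps trained to faces and 40.96 ± 8.88 CPM over those trained to patterns (SD, n = 4 each). For PmetTSAr2.0-052468 the log2 fold change came to -2.01 ± 0.25 (SE), 0.249 of the patterns level, with a 95% interval of -2.56 to -1.45. Its unadjusted p was 1.08e-05 and its edgeR adjusted p 0.325. The identifiers before and after it had unadjusted p of 0.166 and 0.205 by edgeR, with log2 fold changes of 0.27 ± 0.18 and -0.31 ± 0.23 (SE).

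PmetTSAr2.0-070417 was also at lower levels in faces. It stood at 4.44 CPM in M30, 4.49 in M67, 5.42 in M79 and 4.06 in M91, against 11.5 CPM in M1, 12.4 in M15, 7.89 in M4 and 9.27 in M5. The faces wasps lay close together and the patterns wasps spread more, with M4 once more nearest to the faces group. In PmetTSAr2.0-023503 and PmetTSAr2.0-055968, M4 was instead the patterns wasp farthest from the faces group. Counts were 70 to 115 in faces and 144 to 266 in patterns. The mean was 4.601 ± 0.578 CPM over the wasps trained to faces and 10.3 ± 2.05 CPM over those trained to patterns (SD, n = 4 each). For PmetTSAr2.0-070417 the log2 fold change came to -1.15 ± 0.17 (SE), 0.449 of the patterns level, with a 95% interval of -1.53 to -0.78, an unadjusted p of 1.88e-05 and an edgeR adjusted p of 0.325.

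**Figure D3:**
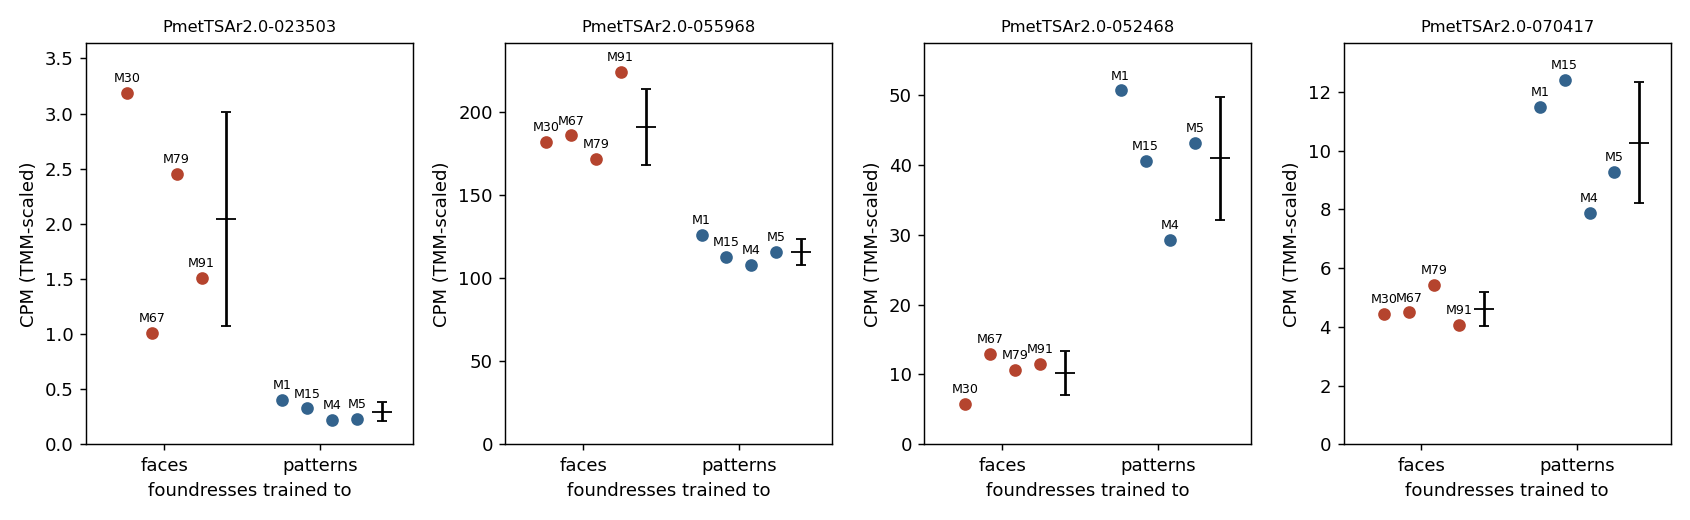
Levels of the 4 named transcripts in CPM after TMM scaling, with 1 dot per wasp, faces left and patterns right, and a bar for the mean ± SD (n = 4 each). The groups do not overlap in any panel; PmetTSAr2.0-052468 stands at 5.73 to 12.9 CPM in faces and at 29.3 to 50.7 CPM in patterns.

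Under 17 other settings, the 8 with a wasp left out among them, the 4 transcripts kept their directions. Their groups did not overlap, so leaving out a wasp could not have turned a direction. The log2 fold change ran from 2.46 to 3.01 for PmetTSAr2.0-023503, from 0.65 to 0.78 for PmetTSAr2.0-055968, from -2.14 to -1.81 for PmetTSAr2.0-052468 and from -1.26 to -1.05 for PmetTSAr2.0-070417. Each passed an adjusted p under 0.05 in 2 of the 17. By DESeq2 the adjusted p were 0.000123 for PmetTSAr2.0-023503, 1.32e-05 for PmetTSAr2.0-055968, 1.03e-11 for PmetTSAr2.0-052468 and 6.52e-05 for PmetTSAr2.0-070417. The other setting was edgeR without the filter on low counts. Because the 4 were chosen by p on the same libraries, the adjusted p in both settings describe them and test nothing.

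Neighbouring identifiers often differed in the same direction. Of the transcripts at an unadjusted p under 0.05, 4848 had a tested identifier directly beside them in number. Among these, 1757 (36.2%) had such an identifier at that p in the same direction and 155 (3.20%) in the opposite one. Of all tested transcripts 10.4% reached that p, 3.94% higher and 6.46% lower. How often any tested transcript has a neighbour at that p was not counted. Joined where direct neighbours shared their direction, the 5554 made 4501 units, 3797 of them single identifiers and 704 runs of 2 or more, of which 26 held 5 or more. Of the 4501 units, 1782 were higher and 2719 lower in faces, which is 60.4% lower. The longest run, singled out after its values were seen, held 13 consecutive identifiers, all lower in faces, with log2 fold changes of -0.90 to -0.76 and a lowest unadjusted p of 0.00279. Its summed level was 1207 CPM in M30, 1941 in M67, 1346 in M79 and 2027 in M91, against 3262 CPM in M1, 2581 in M15, 1845 in M4 and 3673 in M5. Here M4 lay below M67 and M91, so the groups overlapped in the sum.

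Whole profiles were compared last. On the first principal component of the 53388 transcripts, with 34.9% of the variance, the wasps did not divide by stimulus. M79 of the faces group, at 79.1, lay beside M4 of the patterns group, at 78.4, and M5 followed at 43.0. The other 5 lay from -67.3 to -29.7. The second component, with 21.7%, ran from -13.3 to 77.0 in faces and from -49.6 to -7.87 in patterns, where M67 and M4 overlapped. Measured as the root mean square difference in log2 CPM, 5 of the 8 wasps had their nearest neighbour in their own group. M79 was nearest to M4, at 0.509, and M1 and M15 were nearest to M67, at 0.488 and 0.464. Between groups the mean distance was 0.600, against 0.598 within faces and 0.558 within patterns. Of the summed squared distance, 18.0% lay between stimuli, with an exact permutation p of 0.2, and 0.4 after adjustment over 4 tests. A share at least as large came from 14 of the 70 assignments of wasps. Any split gives a share above 0, and its size depends on the number of wasps. Without M79 the share between stimuli was 25.4%, the largest with a wasp left out, with an exact permutation p of 0.0857. With any other wasp left out that p was 0.171 to 0.457.

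**Figure D4:**
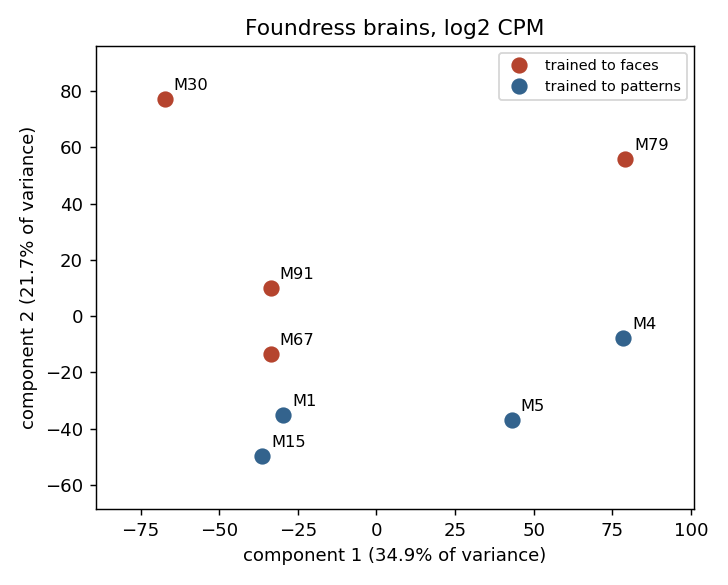
The 8 foundress brains on the first and second principal components of log2 CPM over the tested transcripts, with 1 dot per wasp. M79 and M4 sit together at the right, near 79.1 and 78.4 on the first component, although their stimuli differ. Faces lie higher than patterns on the second, except that M67 lies below M4.

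Wasps trained to faces did not differ detectably more among themselves than wasps trained to patterns. The median SD of a transcript's log2 CPM was 0.268 in faces and 0.240 in patterns, and 56.7% of transcripts had the larger SD in faces. The exact two-sided permutation test of the difference of 0.0287 gave p = 0.686, and 0.743 after adjustment. It turned to -0.0169 without M30 and to -0.00852 without M79, where 46.8% and 47.1% of transcripts had the larger SD in faces.

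The number of identifiers seen in a brain overlapped between the groups. Reduced to the 17289375 counts of the smallest library, M30 showed 89565 identifiers, M67 89916, M79 90457 and M91 91015, against 90783 in M1, 95735 in M15, 89321 in M4 and 89639 in M5. M15 stood above all others, and the other 7 overlapped. The means were 90238 ± 635 in faces and 91369 ± 2977 in patterns (SD, n = 4 each), a difference of -1131 (exact two-sided permutation test, p = 0.743, adjusted p = 0.743). Without M15 the difference was 324.

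**Figure D5:**
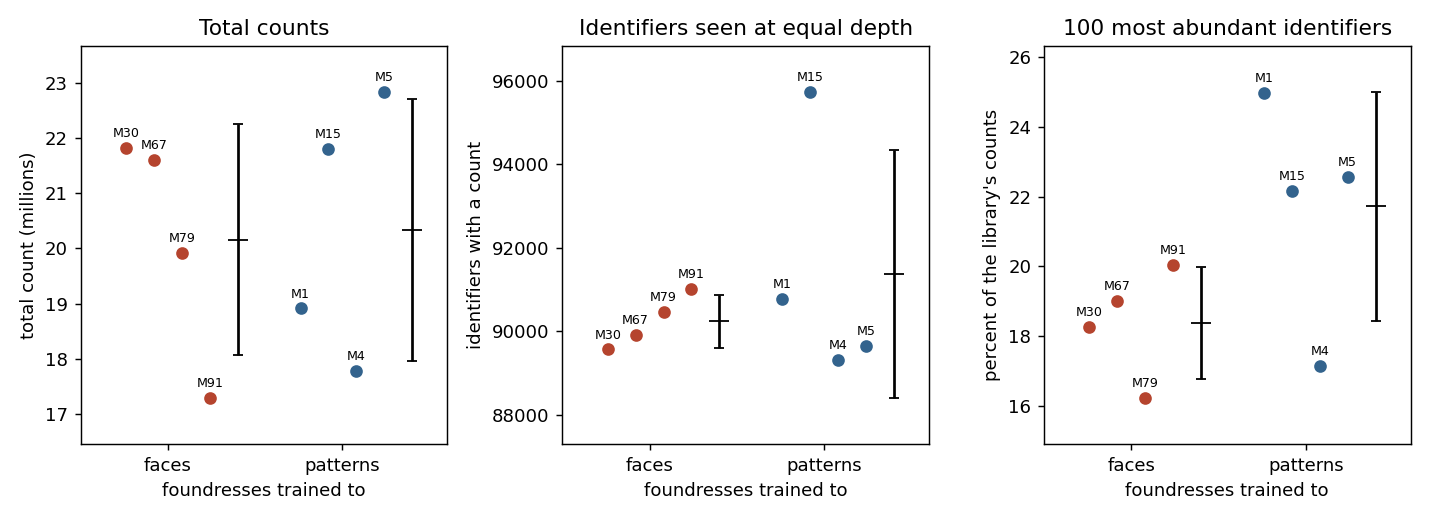
Total counts, identifiers with a count after reduction to the smallest library, and the percent of counts in the 100 most abundant identifiers, with 1 dot per wasp and a bar for the mean ± SD (n = 4 each); axes do not start at 0. The groups overlap in all 3 panels, and the 100 identifiers hold 16.2% to 20.03% in faces and 17.1% to 24.99% in patterns.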

How the data were processed

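Per the labels' protocols, total RNA of individual brains (RNeasy) went into Illumina TruSeq libraries. The authors deposited whole-number counts per transcript identifier. Per the submitters' processing notes the tools were Trimmomatic 0.32, Bowtie2 and eXpress; options, transcript set, strand and any rounding of estimated counts: not given in the sources used here. If estimates were rounded, reads shared by similar transcripts were divided between them.

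The 8 foundress libraries totalled 17289375 to 22832434 counts (20160339 ± 2093941 in faces, 20330839 ± 2373337 in patterns, SD, n = 4 each). Transcripts at 10 or more counts in 4 or more libraries were tested with edgeR 4.0.16 (R 4.3.3): TMM factors (0.93 to 1.07), quasi-likelihood F test with robust estimation, 1 mean per group, 6 residual degrees of freedom, Benjamini-Hochberg adjustment over all transcripts. A call is an adjusted p under 0.05. Standard errors are the log2 fold change over the root of F. The common biological coefficient of variation was 21.5%. Distances and SDs used log2 CPM with a prior count of 2. Single values were tested by exact permutation of the 8 wasps (70 assignments). On simulated counts, drawn for each transcript independently, the direction of calls and the size of a 4-fold change were checked. The permutation p was checked on a made-up example. Standard errors and intervals were not checked. Alternatives used DESeq2 1.42.0, limma 3.58.1 and sva 3.50.0. Each library was 1 wasp and 1 replicate; no 2 agreed within sampling noise (chi-square per degree of freedom at least 8.95). Wasp numbers are not shared between the groups. Named were the 2 transcripts of lowest p in each direction. The comparison, rules and tests were chosen with earlier results of these data known.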

Additional observations from a re-analysis of the deposited data

How the results depend on the processing

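The count of 0 calls by edgeR was also 0 with DESeq2 size factors, without the 100 most abundant identifiers, with filterByExpr, with all 16 libraries in 1 fit, by limma-voom with or without sample quality weights, at an adjusted p under 0.1 and with any 1 wasp left out. It moved to 216 by DESeq2, which gave no adjusted p for 2086 transcripts, and to 955 (478 higher, 477 lower) with no filter on low counts. In that last fit the 5554 transcripts at an unadjusted p under 0.05 became 10896 of 125519, and edgeR's median prior degrees of freedom were infinite, against 6.35 with the filter, so that no spread of its own was kept for a typical transcript. With a wasp left out, the 5554 ranged from 3413 to 6792. With all 16 libraries in the fit, 53.0% of those at an unadjusted p under 0.05 were lower in faces, against 62.1%, and 58.3% with DESeq2 size factors. That share was 52.3% with no filter on low counts. With a wasp left out it ran from 55.1% without M79 to 63.5% without M5. With a wasp left out, the difference in identifiers seen ran from -1814 to 324, that in the share of the 100 most abundant from -4.87 to -2.25 percentage points, that in median SD from -0.0169 to 0.0506, and the share of squared distance from 16.2% to 25.4%. Non-overlapping transcripts stayed within 1.5 times of 3462 with DESeq2 size factors and with filterByExpr. The median standard error was 0.351 in the lowest abundance quartile and 0.133 in the highest, and how much of it came from depth and how much from spread among wasps was not tested. Intervals assume the spread of these wasps.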

Other observations

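A fit with 1 surrogate variable, chosen after the first principal component was seen to cross the groups, called 0 transcripts, with a lowest adjusted p of 0.0694. It gave 6866 transcripts at an unadjusted p under 0.05 (12.9%), 2601 higher and 4265 lower in faces, and 5237 of these were among the 5554. The surrogate variable was lowest in M79 (-0.545) and M4 (-0.527), and highest in M30 (0.402). In 32 groups of 4 values examined, which were depth, composition, distances and the 4 named transcripts, 0 held a wasp that stood apart from the other 3 by Dixon's criterion, where chance marks about 1 in 20.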
